A study of Mus musculus with 16 samples.

Results

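The respiratory chain of the mitochondrion moves electrons from its substrates to oxygen and makes ATP, and its complexes II to V are built largely or wholly from subunits that the nuclear genome encodes. The genes of these nuclear subunits were followed in a mouse acute myeloid leukemia line with and without a CRISPR guide against the lactate carrier MCT4, at high and at low oxygen. Members were the protein-coding genes of the deposited count table named Sdha to Sdhd, Cyc1 or Cycs, or with a symbol that starts with Uqcr, Atp5, Cox4, Cox5, Cox6, Cox7 or Cox8. This rule found 49 of the 53801 genes in the table: 4 of complex II, 9 of complex III, cytochrome c (Cycs), 18 of complex IV and 17 of complex V. The symbols follow an older nomenclature, and Usmg5, another small subunit of complex V, lies outside the rule.

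All 16 libraries came from a leukemia line driven by the MLL-AF9 fusion, grown in RPMI with serum, interleukin 3 and stem cell factor. All carried Cas9 that was switched on by 4-OHT (4-hydroxytamoxifen). MCT4-KO cells had a CRISPR guide against MCT4, the carrier encoded by Slc16a3 that moves lactate out of the cell together with a proton, and control cells had a non-targeting guide. Each genotype was then kept at 20% or 2% oxygen, which gave 4 groups of 4 libraries (Control_20pct, MCT4-KO_20pct, Control_2pct and MCT4-KO_2pct). The labels name no separate clones, cultures or animals and do not say how long the cells stayed at each oxygen level, and p-values therefore cover only how far these libraries vary, possibly for technical reasons.

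Complex II, succinate dehydrogenase, passes electrons from the citric acid cycle to ubiquinone. Complex III passes them on to cytochrome c, complex IV (cytochrome c oxidase) hands them to oxygen, and complex V (ATP synthase) uses the proton gradient made by the chain to form ATP. Several subunits of complexes IV and V exist as alternative isoforms encoded by separate genes, some known for heart, skeletal muscle, lung or testis, and the catalytic cores of complexes III, IV and V also contain subunits encoded by mitochondrial DNA.

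The libraries held 21192179 to 28871459 estimated counts each. Levels below are CPM (counts scaled to a common library size, with TMM factors), differences are log2 fold changes ± SE from edgeR's quasi-likelihood test with n = 4 libraries per group, and "rose" and "fell" are kept for genes whose edgeR p, adjusted over all 13774 genes tested, was under 0.05. Slc16a3 was lower in MCT4-KO libraries by 1.39 at 20% oxygen and by 1.15 at 2% oxygen on the log2 scale, with no overlap between the genotypes at either level. It stood at 184 to 235 CPM in Control_20pct and 70.4 to 94.7 CPM in MCT4-KO_20pct. At 2% oxygen it stood at 789 to 844 CPM in control and 358 to 370 CPM in MCT4-KO libraries. The MCT4-KO_2pct libraries thus held more Slc16a3 RNA than any Control_20pct library. These libraries do not measure MCT4 protein. Of 12 myeloid leukemia markers 11 had a mean above 1 CPM over all libraries. Replicate 4 of Control_2pct stood apart from the other libraries of its group, with a chi-square of 8.61 to 12.9 per gene against them and 2.55 to 3.38 among those 3. The main values that rest on it are therefore also given without it. Control_20pct was uneven as well (3.53 to 9.25), with replicate 3 at 9.25 and 8.93 from replicates 1 and 2. The range was 2.49 to 7.72 in MCT4-KO_20pct and 1.77 to 2.81 in MCT4-KO_2pct.

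Of the 49 members, 44 passed the filter on low counts and were tested. The 5 that did not pass were Cox4i2, Cox6b2, Cox7b2, Cox8b and Cox8c, all alternative isoforms of complex IV. CPM per kilobase of merged exons divides by the length of all annotated exons, which need not match the transcript expressed. It therefore ranks genes only roughly. Merged exons span 4237 bases in Atp5b and 619 in Cox8a, for example. On this measure the highest levels in Control_20pct were those of Atp5b (341), Cox8a (340) and Atp5a1 (305). The lowest among tested members were those of Cox7a1 (3.66), Atp5s (7.13) and Atp5g2 (9.26). The place of Atp5g2 holds only for reads assigned to the gene itself, since with its near-identical copies added it had 261 CPM in Control_20pct against 15.5 CPM alone.

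At low oxygen most nuclear subunit genes of complexes II to V were more abundant, in both genotypes. In control cells 37 of the 44 tested members rose and 5 fell, and the edgeR test called 78.3% of all genes tested in that comparison, 38.7% of them higher and 39.6% lower. In MCT4-KO cells 39 rose and 4 fell, where 76.4% of all genes tested were called, 37.7% higher and 38.7% lower. These shares also stand against the oxygen counts of each complex and gene list below. The median log2 fold change over the tested members was 0.52 in control and 0.54 in MCT4-KO cells, against -0.02 and -0.01 over all genes tested. Summed over the members, the level went from 7243 ± 254 to 9425 ± 522 CPM in control libraries and from 7213 ± 151 to 9417 ± 156 CPM in MCT4-KO cells (mean ± SD, n = 4). The 4 Control_2pct libraries summed to 9191, 9055, 9257 and 10198 CPM, the last being replicate 4, and without that library the edgeR test still called 37 members higher and 5 lower.

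The size of these values depends on the scaling. Dividing by the total counts in place of TMM moved the median of all genes to -0.22 in control and -0.19 in MCT4-KO cells, and then 32 members were called higher and 6 lower in control and 32 higher and 5 lower in MCT4-KO cells. Under that scaling the rises of Sdha, Atp5b and Atp5f1 in control cells turned to values of -0.01, -0.05 and -0.06, and that of Cox7a2l in MCT4-KO cells to -0.05, none of them called.

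**Figure D1:**
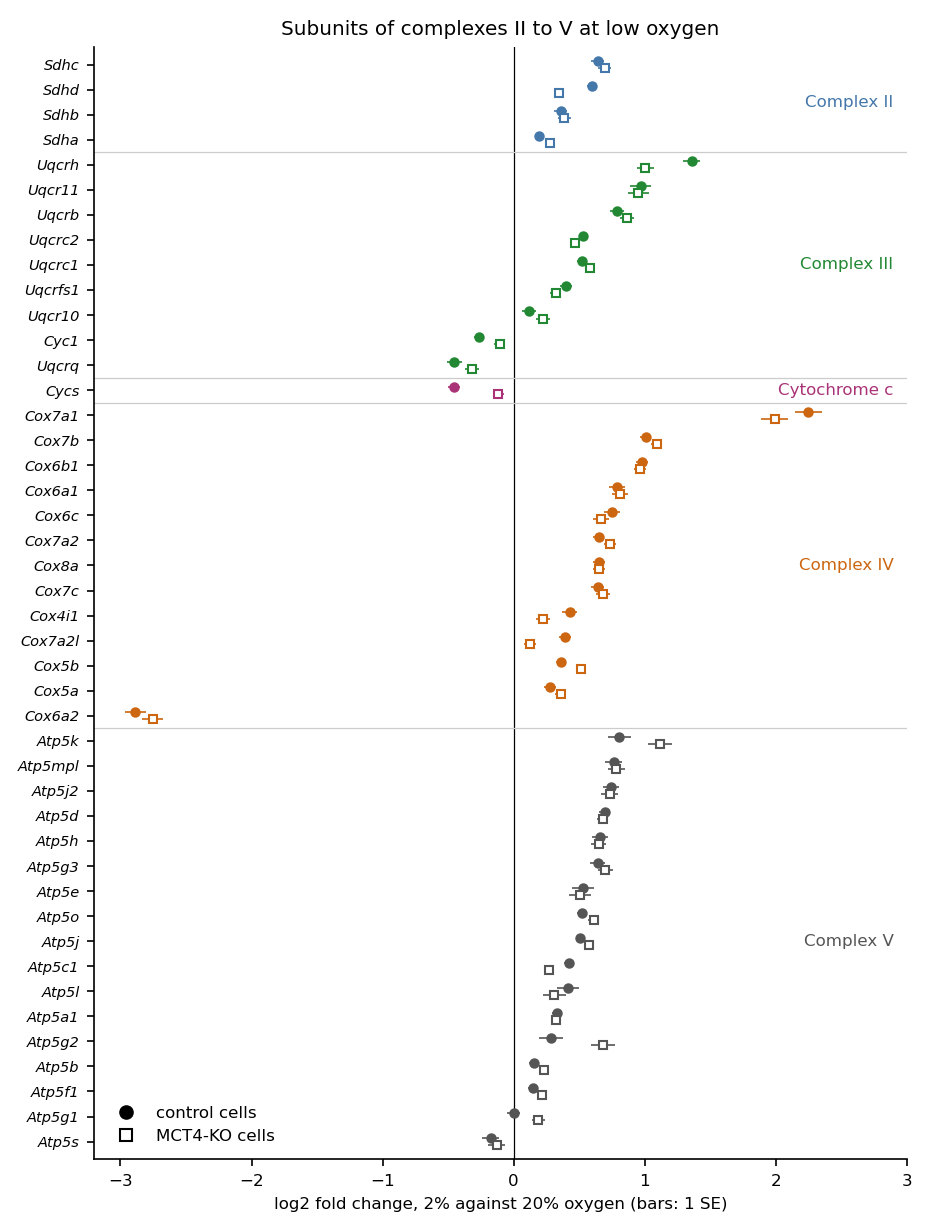
Log2 fold change of each of the 44 tested members at 2% against 20% oxygen (horizontal axis, bars 1 SE), with filled circles for control and open squares for MCT4-KO cells, grouped by complex. Most points lie right of 0, with Cox6a2 far to the left (-2.89 and -2.75) and Cox7a1 far to the right (2.25 and 1.99).

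In complex II all 4 subunits rose in both genotypes under TMM scaling. The membrane anchor subunits Sdhc and Sdhd rose most in control cells, by 0.64 ± 0.047 and 0.60 ± 0.039 (edgeR adjusted p = 7.70e-11 and 1.18e-11). The iron-sulfur subunit Sdhb rose by 0.36 ± 0.049, and the flavoprotein Sdha, which carries the succinate-oxidising site, by 0.20 ± 0.032. In MCT4-KO cells the 4 genes rose by 0.28 (Sdha) to 0.69 (Sdhc).

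In complex III 6 of 9 members rose and 2 fell in control cells, and 7 rose and 2 fell in MCT4-KO cells. The largest rise was that of Uqcrh, the hinge subunit at the cytochrome c side of the complex (ENSMUSG00000063882, chromosome 4, 116066965 to 116075071, minus strand, GRCm38). It stood at 61.2, 61.7, 54.2 and 56.9 CPM in the Control_20pct libraries and at 142, 141, 143 and 175 CPM in the Control_2pct libraries. No library of one oxygen level reached the range of the other, and the gene rose by 1.36 ± 0.064 (edgeR adjusted p = 5.85e-14), or by 1.28 without replicate 4 of Control_2pct. In MCT4-KO cells it rose from 54.0, 57.9, 61.7 and 63.0 CPM to 123, 120, 115 and 117 CPM, or by 1.01 ± 0.064.

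The small subunits Uqcr11 and Uqcrb rose next, by 0.97 ± 0.081 and 0.79 ± 0.054 in control and by 0.95 and 0.86 in MCT4-KO cells. The core proteins Uqcrc1 and Uqcrc2 rose by 0.52 and 0.53 in control cells and the Rieske iron-sulfur protein Uqcrfs1 by 0.40. Against these, Cyc1, the cytochrome c1 that hands electrons to cytochrome c, fell by 0.26 ± 0.039 in control cells and by 0.11 ± 0.039 in MCT4-KO cells. Uqcrq, a small subunit next to cytochrome b, fell by 0.45 ± 0.056 and 0.32 ± 0.055. Uqcr10 was at 0.12 ± 0.054 in control cells (edgeR adjusted p = 0.0542) and rose by 0.23 in MCT4-KO cells. The fall of Cyc1 in MCT4-KO cells was lost when replicate 4 of MCT4-KO_20pct or replicate 4 of MCT4-KO_2pct was left out (-0.09 in each case).

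Cycs, the mobile carrier between complexes III and IV, which is also known for its role in apoptosis, went the same way as Cyc1. It was at 102, 104, 97.1 and 93.4 CPM in Control_20pct and at 67.3, 73.2, 71.1 and 77.7 CPM in Control_2pct, with no overlap, and fell by 0.46 ± 0.046 (edgeR adjusted p = 1.14e-08). In MCT4-KO cells it went from 88.6, 96.2, 91.4 and 93.4 CPM to 89.4, 81.7, 83.3 and 86.8 CPM, groups that overlap, and fell by 0.12 ± 0.045. That smaller fall was lost when replicate 2 or 4 of MCT4-KO_20pct or replicate 2 or 3 of MCT4-KO_2pct was left out (-0.10, -0.11, -0.10 and -0.10).

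The promoters of 5 of the genes that rose most in complexes III and IV and of Cycs, which fell, are shown because hypoxia-inducible factors are known to bind the core letters ACGTG and GCGTG. Each runs from 250 bases before to 50 bases after the RefSeq start of the gene (GRCm38.p6), in the gene's direction, and capitals mark ACGTG or GCGTG on either strand (CACGT and CACGC where the match is on the other strand). Uqcrh lies at chr4:116075021-116075320 (minus strand), Cox7a1 at chr7:30183921-30184220 (plus strand), Cox7b at chrX:106015450-106015749 (plus strand), Cox6b1 at chr7:30626065-30626364 (minus strand), Uqcr11 at chr10:80406772-80407071 (minus strand) and Cycs at chr6:50566520-50566819 (minus strand).
Uqcrh: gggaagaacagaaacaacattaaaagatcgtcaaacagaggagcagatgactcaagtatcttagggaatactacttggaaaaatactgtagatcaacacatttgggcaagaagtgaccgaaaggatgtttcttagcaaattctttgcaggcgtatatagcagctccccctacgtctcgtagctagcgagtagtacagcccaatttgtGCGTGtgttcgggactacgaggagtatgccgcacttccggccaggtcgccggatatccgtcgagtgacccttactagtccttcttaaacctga
Cox7a1: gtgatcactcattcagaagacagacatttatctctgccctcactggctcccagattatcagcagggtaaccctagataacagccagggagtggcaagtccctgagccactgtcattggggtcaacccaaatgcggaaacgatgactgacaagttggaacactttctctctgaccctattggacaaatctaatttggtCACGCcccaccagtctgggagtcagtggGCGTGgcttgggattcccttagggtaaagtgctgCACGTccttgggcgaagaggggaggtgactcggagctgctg
Cox7b: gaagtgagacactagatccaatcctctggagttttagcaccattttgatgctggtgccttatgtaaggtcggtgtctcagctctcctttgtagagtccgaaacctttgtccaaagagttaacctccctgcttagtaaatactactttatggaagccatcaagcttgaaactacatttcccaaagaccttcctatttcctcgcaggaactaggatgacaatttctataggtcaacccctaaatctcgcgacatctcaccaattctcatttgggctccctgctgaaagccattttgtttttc
Cox6b1: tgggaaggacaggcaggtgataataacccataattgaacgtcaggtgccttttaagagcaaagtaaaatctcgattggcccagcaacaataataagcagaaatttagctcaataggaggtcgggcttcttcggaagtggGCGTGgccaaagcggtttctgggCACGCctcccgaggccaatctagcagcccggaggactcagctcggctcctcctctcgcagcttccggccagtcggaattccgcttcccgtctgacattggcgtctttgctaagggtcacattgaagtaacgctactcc
Uqcr11: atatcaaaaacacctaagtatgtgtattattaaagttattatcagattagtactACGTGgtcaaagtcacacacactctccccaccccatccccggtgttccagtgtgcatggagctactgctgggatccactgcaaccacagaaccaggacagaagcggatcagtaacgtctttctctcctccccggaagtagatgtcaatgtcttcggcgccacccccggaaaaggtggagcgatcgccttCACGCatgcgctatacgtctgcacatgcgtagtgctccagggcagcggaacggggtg
Cycs: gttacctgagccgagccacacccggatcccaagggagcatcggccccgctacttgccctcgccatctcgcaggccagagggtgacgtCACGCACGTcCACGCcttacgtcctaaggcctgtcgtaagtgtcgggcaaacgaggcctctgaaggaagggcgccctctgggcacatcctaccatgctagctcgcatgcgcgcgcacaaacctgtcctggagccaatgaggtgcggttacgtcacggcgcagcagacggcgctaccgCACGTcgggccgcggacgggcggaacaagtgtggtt
The Cox7b window held no such match, Uqcrh 1, Cox6b1 and Uqcr11 2 each, Cox7a1 3 and Cycs 4, of which 2 overlap.

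A promoter entry was found for 37 of the 49 members, 30 of which rose in both genotypes. The 37 include Cox6b2, Cox7b2 and Cox8b, which did not pass the filter, whereas the genes set against them all did. ACGTG, searched on both strands, was in 35.1% of the 37 windows and in 30.0% of the 30, against 29.6% of the windows of 9675 tested genes. GCGTG was in 62.2% and 66.7%, against 56.0%. The motif of nuclear respiratory factor 1 (GCGCA, any base, then GCGC) was in 27.0% and 33.3%, against 11.9% of tested genes. The letters CCGGAAG, bound by ETS factors such as GABPA, were in 32.4% against 20.8%, CCAAT in 56.8% against 43.5% and TATAAA in 8.11% against 8.59%. CACGTG, where ACGTG meets its own reverse complement, counts as a match of ACGTG, and none of these matches was tested for use by a factor.

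In complex IV 12 of the 13 tested members rose and 1 fell, in both genotypes. The member that fell was Cox6a2, the isoform of subunit VIa known for heart and skeletal muscle (ENSMUSG00000030785, chromosome 7, 128205435 to 128206387, minus strand, GRCm38). It was at 46.6, 47.1, 42.7 and 38.7 CPM in Control_20pct and at 4.97, 6.35, 5.85 and 6.49 CPM in Control_2pct, a fall of 2.89 ± 0.081 (edgeR adjusted p = 1.28e-17). In MCT4-KO cells the 4 libraries at 20% oxygen had 42.2, 40.5, 38.0 and 40.5 CPM and those at 2% had 6.56, 5.23, 5.85 and 6.27 CPM, a fall of 2.75 ± 0.080 (edgeR adjusted p = 2.87e-17). The oxygen levels were far apart in both genotypes, and the genotypes overlapped at each level. Without replicate 4 of Control_2pct the value in control cells was -2.94. In RNA from bulk cultures, fewer cells that express a gene and less RNA per cell cannot be told apart.

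Cox6a2 shares 70 exonic bases with Itgad on the other strand, which stood at 1.21 to 2.88 CPM over all libraries. Its partner isoform Cox6a1, the form known for most tissues, rose by 0.79 ± 0.060 in control cells, from 162, 176, 146 and 154 CPM to 268, 253, 266 and 316 CPM, and by 0.81 ± 0.059 in MCT4-KO cells.

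Cox7a1, the heart and skeletal muscle isoform of subunit VIIa, went the opposite way to Cox6a2. It had 2.06, 2.19, 1.65 and 1.94 CPM in Control_20pct and 8.56, 8.90, 10.1 and 9.97 CPM in Control_2pct, a rise of 2.25 ± 0.105 (edgeR adjusted p = 5.07e-14). In MCT4-KO cells it rose by 1.99 ± 0.103, from 1.70, 2.14, 2.21 and 2.42 CPM to 8.42, 8.41, 8.04 and 9.13 CPM. The oxygen levels did not overlap in either genotype. In Control_2pct its level was 17.6 CPM per kilobase, against 117 for its partner Cox7a2. Cox7a2 itself rose by 0.65 ± 0.043 in control cells and 0.74 ± 0.043 in MCT4-KO cells.

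Both isoforms are known for muscle, so the muscle markers Myh6, Myh7, Acta1, Ckm and Myl2 were read in the same libraries. None of these 5 reached a mean of 1 CPM over all libraries, and Myh7 had no count in any. Their summed level was 0.436 to 0.998 CPM in Control_20pct, 0.444 to 0.882 CPM in MCT4-KO_20pct, 1.43 to 2.33 CPM in Control_2pct and 1.07 to 1.43 CPM in MCT4-KO_2pct. Most of it was Ckm, a creatine kinase, at a mean of 0.527 CPM in Control_20pct and 1.57 CPM in Control_2pct. The part of these markers in the values of Cox6a2 and Cox7a1 was not tested.

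The remaining rises in complex IV were led by Cox7b (1.01 ± 0.044, edgeR adjusted p = 1.79e-14) and Cox6b1 (0.98 ± 0.049, edgeR adjusted p = 1.58e-13) in control cells, small subunits of the outer part of the enzyme. In MCT4-KO cells Cox7b rose by 1.09 ± 0.044 and Cox6b1 by 0.96 ± 0.049. Cox6b1 went from 71.6, 75.8, 67.0 and 64.9 CPM to 132, 129, 139 and 150 CPM in control cells, with no overlap. Cox6c, Cox7c and Cox8a rose by 0.64 to 0.75 in control cells, Cox4i1, the common form of subunit IV, by 0.43, Cox5b by 0.36 and Cox5a by 0.28. Cox7a2l, known as a factor that joins complexes III and IV into supercomplexes, rose by 0.39 in control cells and by 0.13 in MCT4-KO cells.

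In complex V 15 of 17 members rose and 1 fell in control cells, and 16 rose and none fell in MCT4-KO cells. In the catalytic head, Atp5d rose by 0.70 ± 0.041 and Atp5e by 0.53 ± 0.086 in control cells, whereas the abundant Atp5a1 and Atp5b rose by 0.33 ± 0.034 and 0.15 ± 0.033. Atp5b went from 1436, 1502, 1425 and 1418 CPM to 1583, 1575, 1554 and 1718 CPM, groups that did not overlap. Atp5k, a small subunit of the membrane part, had the largest rise of the complex, 0.81 ± 0.090 in control and 1.12 ± 0.089 in MCT4-KO cells. Atp5mpl, Atp5j2 and Atp5h rose by 0.76, 0.74 and 0.66, and the peripheral stalk subunit Atp5f1 by 0.15. Atp5s, which the symbol rule takes in although its product is not a stable subunit of the enzyme, fell by 0.17 ± 0.064 in control cells, a call lost without replicate 1 of Control_20pct (-0.15) or replicate 1 of Control_2pct (-0.13). Usmg5, the subunit outside the symbol rule, rose by 0.31 ± 0.067 in control cells and 0.42 ± 0.067 in MCT4-KO cells.

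**Figure D2:**
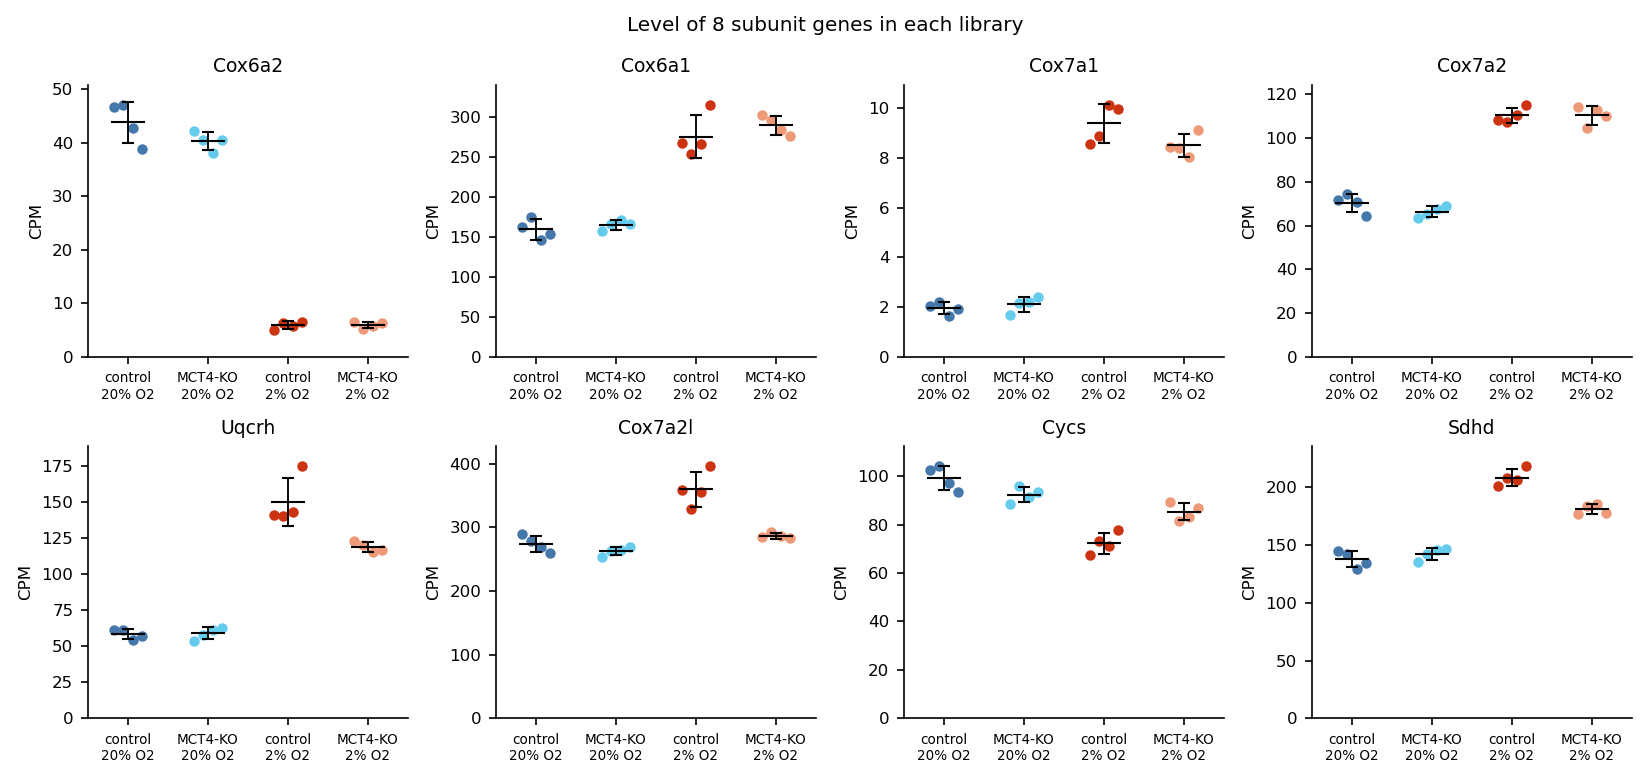
Level (CPM, TMM-scaled, vertical axis) of 8 member genes in each of the 16 libraries by group, where points are libraries and lines show the mean with 1 SD (n = 4). Cox6a2 and Cycs were lower and the other 6 genes higher at 2% than at 20% oxygen in control cells, and Uqcrh, Cox7a2l and Sdhd were lower and Cycs higher in MCT4-KO than in control cells at 2% oxygen.

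The partners of these subunits that mitochondrial DNA encodes did not follow them. All 6 such genes of complexes III to V fell at low oxygen in both genotypes, with a median of -1.11 in control and -1.36 in MCT4-KO cells. mt-Cytb, the cytochrome b of complex III, fell by 2.19 ± 0.15 and 2.09 ± 0.15, mt-Co1, the catalytic subunit of complex IV, by 0.84 ± 0.15 and 0.42 ± 0.15, and mt-Atp8 of complex V by 2.18 ± 0.090 and 1.82 ± 0.086. Their summed level was 3624, 3514, 5781 and 4573 CPM in Control_20pct and 2351, 2231, 1939 and 1615 CPM in Control_2pct. Per library, the summed level of the 44 nuclear members over that of these 6 was 1.23 to 2.15 in Control_20pct, 1.63 to 1.89 in MCT4-KO_20pct, 3.91 to 6.32 in Control_2pct and 3.62 to 4.75 in MCT4-KO_2pct, so no library of one oxygen level reached the other. Libraries were made from poly(A)-selected RNA, and whether selection of mitochondrial transcripts differed between the oxygen levels was not tested. Copies of these 6 genes elsewhere in the genome, which could take up part of their reads, were not searched for. The level of mt-Atp6 varied widely within a group, with 161, 55.9, 114 and 205 CPM in MCT4-KO_20pct. There mt-Atp8 had 104, 144, 121 and 125 CPM. These limits also apply to the sums and ratios above.

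The nuclear subunits of complex I, chosen by symbol and without Ndufa4, had smaller differences: 29 of 36 rose and 2 fell in control cells (median 0.31), and 31 rose and none fell in MCT4-KO cells (median 0.36). Of all genes tested, 38.7% rose and 39.6% fell in control cells and 37.7% rose and 38.7% fell in MCT4-KO cells. Ndufv3 rose most clearly (1.66 ± 0.037), followed by Ndufb10 (0.64 ± 0.043) and Ndufc1 (0.71 ± 0.051). Whether complex I differed from complexes II to V was not tested.

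**Figure D3:**
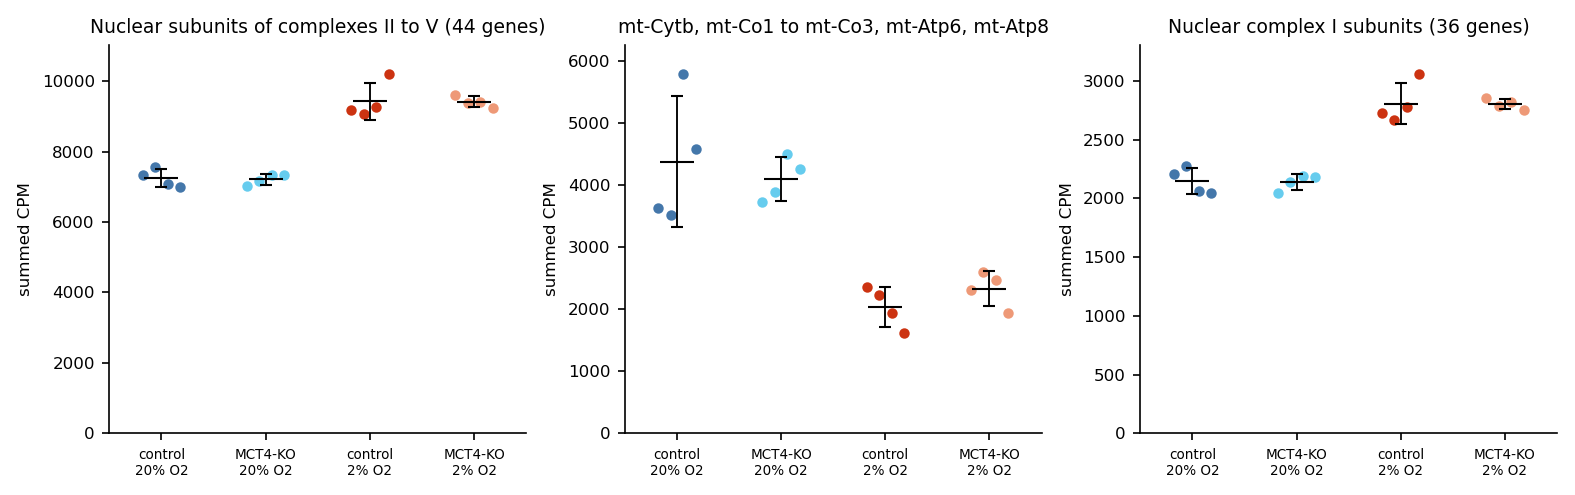
Summed CPM (vertical axis) in each library of the 44 tested nuclear members, of 6 mitochondrially encoded subunits of complexes III to V and of 36 nuclear complex I subunits, where points are libraries and lines the mean with 1 SD (n = 4). Both nuclear sums were higher and the mitochondrial sum was lower in the libraries at 2% oxygen.

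Genes that assemble these complexes moved in both directions. In control cells at low oxygen 10 of 23 assembly factors of complex IV rose and 10 fell, with a median of -0.04. Over all genes tested 38.7% rose and 39.6% fell in that comparison, shares that also stand against the lists below. Sco2, which delivers copper to the enzyme, fell by 1.55 ± 0.075, Lrpprc, which stabilises mitochondrial mRNAs, by 1.07 ± 0.054 and Coa7 by 1.02 ± 0.060, and in MCT4-KO cells these falls were 1.45, 0.83 and 0.56. Among the factors that rose in control cells were Pet100 (0.95 ± 0.098) and Cmc1 (0.66 ± 0.088). Of 5 genes that assemble or inhibit complex V 2 rose and 3 fell in control cells, among them Tmem70 (-0.87 ± 0.035) and Atpaf1 (-0.91 ± 0.053). For complex II 1 of 4 rose and 3 fell, with Sdhaf4 at 0.83 ± 0.085 and Sdhaf1 at -0.55 ± 0.058, and for complex III 1 of 6 rose and 2 fell, with Uqcc2 at 0.44 ± 0.063 and Ttc19 at -0.60 ± 0.069.

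Among 11 tested regulators of respiratory genes 1 rose and 8 fell in control cells at low oxygen. The coactivator Pprc1 fell by 1.60 ± 0.062, Esrra by 0.51 ± 0.041 and Gabpa by 0.45 ± 0.036, while Chchd2, known to act on a promoter of Cox4i2, rose by 0.85 ± 0.048. Gabpa shares exonic bases with the member Atp5j. In a list of genes known for switching the chain or mitochondria at low oxygen 8 of 9 rose and 1 fell: Pdk1, which holds back pyruvate oxidation, rose by 2.46 ± 0.066, Higd1a, known to bind complex IV, by 1.53 ± 0.043, Mxi1 by 1.39 ± 0.040 and Lonp1, a mitochondrial protease known for acting on Cox4i1 protein, by 0.79 ± 0.039.

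The exchange of Cox4i1 for Cox4i2 is a known response of complex IV to low oxygen in other cells. Here Cox4i2 gave 0, 2, 2 and 0 counts in the 4 Control_20pct libraries, 1, 0, 1 and 2 in MCT4-KO_20pct, 5, 3, 3 and 8 in Control_2pct and 7, 6, 9 and 6 in MCT4-KO_2pct. Every library at 2% oxygen thus had more counts than any at 20%, and the ratio of the summed counts, scaled by library, was 5.34 (95% interval 1.78 to 21.6) in control and 7.57 (2.65 to 29.7) in MCT4-KO cells, intervals that cover counting error only. The level at 2% oxygen was 0.213 CPM in control libraries and 0.291 CPM in MCT4-KO cells over the summed libraries, against 555 ± 56.6 and 492 ± 8.26 CPM for Cox4i1, which rose as well. Per kilobase Cox4i2 made up 0.0736% ± 0.0298 of the pair in Control_2pct. Cox7b2, Cox8b and Cox8c had no count in any library and Cox6b2 had 1 count in each of 2 libraries, which allows up to 0.0336 CPM for a gene without a count over the 4 Control_2pct libraries.

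For the isoform sets whose members were all tested, the share of each isoform was taken from its counts per kilobase of merged exons. The size of a share thus also depends on the annotated exon lengths. Cox6a2 made up 22.1% ± 1.17 of the Cox6a pair in Control_20pct and 2.17% ± 0.27 in Control_2pct, and 20.1% ± 1.26 and 2.09% ± 0.21 in the MCT4-KO groups (SD, n = 4). The share of Cox7a1 in its pair with Cox7a2 went from 4.69% ± 0.51 to 13.0% ± 0.72 in control and from 5.32% ± 0.57 to 11.96% ± 0.76 in MCT4-KO cells. In neither pair did an oxygen level overlap with the other. Each gave an exact two-sided permutation p of 0.0286, the smallest that the 70 splits of 4 against 4 libraries allow, and 0.0623 after Benjamini-Hochberg adjustment over 24 comparisons, so none of the 24 passed the threshold.

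Cox7a2l made up 71.3% ± 0.80 of its pair with Cox7a2 in Control_20pct, 71.7% ± 0.36 in MCT4-KO_20pct, 67.5% ± 1.07 in Control_2pct and 62.4% ± 1.21 in MCT4-KO_2pct. Here the genotypes did not overlap at 2% oxygen (exact permutation p = 0.0286, adjusted 0.0623). Of the 3 genes for the same c subunit of the ATP synthase ring, Atp5g3 took 67.0% ± 1.31 in Control_20pct and 74.6% ± 1.63 in Control_2pct and Atp5g1 21.9% ± 1.04 and 15.7% ± 0.98. The level of Atp5g1 itself was 90.1 CPM in both of these groups (log2 0.00038 ± 0.048, edgeR adjusted p = 0.994), while Atp5g3 rose by 0.64. In MCT4-KO cells Atp5g1 rose by 0.19 ± 0.048. Library-size scaling gave -0.20 in control and 0.01 in MCT4-KO cells for Atp5g1.

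**Figure D4:**
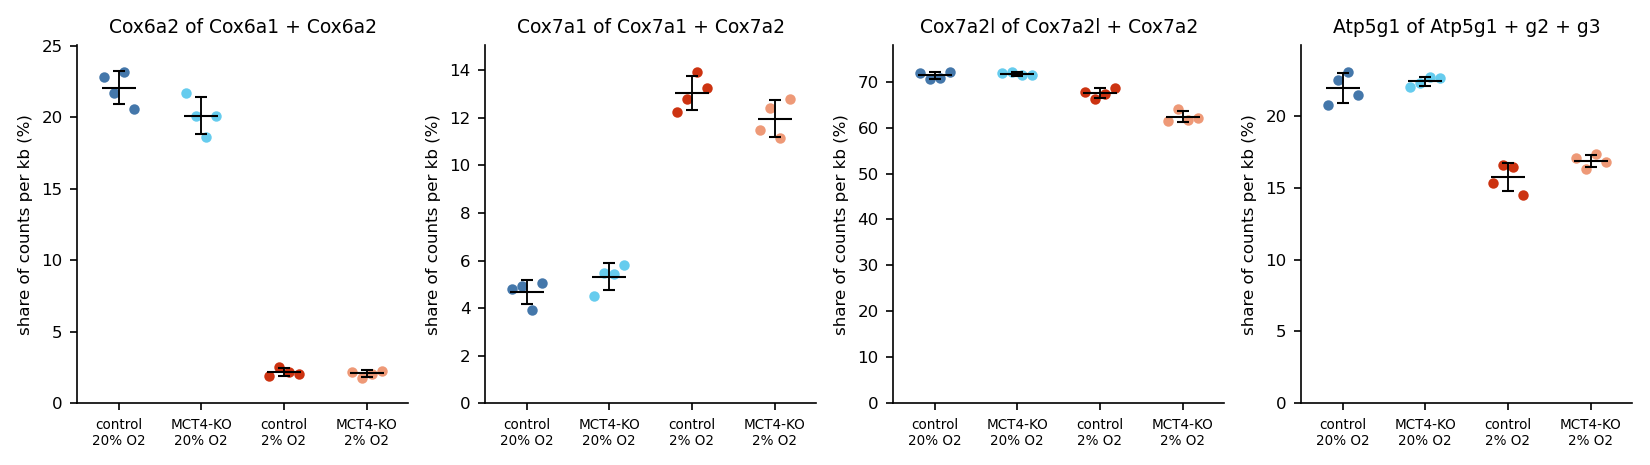
Share of an isoform in the counts per kilobase of its set (vertical axis, percent) in each library by group, where points are libraries and lines the mean with 1 SD (n = 4). The share of Cox6a2 was between 18.6 and 23.2% at 20% oxygen and between 1.79 and 2.52% at 2% oxygen, that of Cox7a1 was higher at 2% oxygen, and that of Cox7a2l was lowest in MCT4-KO cells at 2% oxygen.

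Some of these genes have near-identical copies in the genome that can take up part of their reads. Of the 44 tested members 21 had at least 1 other annotated gene with 90% identity over 100 bases or more and over 50% of its own length, and in 4 of them the copies held over 5% of the combined counts. Atp5g2 had 15.5 ± 1.72 CPM in Control_20pct, whereas its pseudogene Gm10175 on chromosome 7 had 246 ± 9.06 CPM, and Cycs had 99.3 ± 4.92 CPM against 158 ± 13.6 CPM for Gm10053 on chromosome 19. Reads of these pairs cannot be assigned with certainty. With the copies added to their gene, a choice made after seeing the data, the fall of Cycs in control cells was 0.48 ± 0.045 and the rise of Atp5g2 0.31 ± 0.064, and the shares of the c subunit genes in Control_20pct became 67.7% ± 0.598 for Atp5g2, 24.3% ± 0.616 for Atp5g3 and 7.96% ± 0.412 for Atp5g1.

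At 20% oxygen 1 of the 44 members differed between MCT4-KO and control cells, against 9.76% of all genes tested (4.96% higher and 4.80% lower). Atp5s was at 15.1, 14.3, 14.8 and 13.9 CPM in control libraries and at 11.4, 12.4, 13.9 and 12.8 CPM in MCT4-KO libraries and fell by 0.20 ± 0.063 (edgeR adjusted p = 0.0499), and the genotypes overlapped at 13.9 CPM. The call was lost when any 1 of 12 libraries was left out (edgeR adjusted p up to 0.141), that is, all but replicate 4 of Control_20pct, replicate 3 of MCT4-KO_20pct and replicates 1 and 4 of Control_2pct, and under 7 other settings of the fit. Without replicate 4 of Control_2pct, Atp5mpl was called as well (-0.14). Atp5s and Atp5mpl both lie on chromosome 12. Its 523 tested genes had a median of -0.11 in this comparison against -0.0015 on the other chromosomes. The part of this in the values of Atp5s and Atp5mpl was not tested. Apart from Atp5s, the other 43 members had log2 fold changes between -0.16 and 0.11, and the median of all 44 was -0.01.

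At 2% oxygen 10 of the 44 members differed between the genotypes, 5 higher and 5 lower in MCT4-KO cells, against 38.4% of all genes tested, and the median was 0.00. None of these changes exceeded 0.34 on the log2 scale. Without replicate 4 of Control_2pct 18 members were called, 14 higher and 4 lower, 8 of them among the 10, and the median was 0.06, so the number of small rises depended on that library. Dividing by total counts in place of TMM gave 14 higher and 5 lower.

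The members lower in MCT4-KO cells at 2% oxygen were Uqcrh, Cox7a2l, Sdhd, Cox4i1 and Atp5c1. Uqcrh had 142, 141, 143 and 175 CPM in control libraries and 123, 120, 115 and 117 CPM in MCT4-KO libraries and differed by -0.34 ± 0.061 (edgeR adjusted p = 0.000210). Cox7a2l had 358, 328, 356 and 396 CPM against 285, 293, 285 and 283 CPM (-0.33 ± 0.045, edgeR adjusted p = 1.09e-05). Sdhd had 201, 208, 207 and 218 CPM against 177, 183, 186 and 178 CPM (-0.20 ± 0.038, edgeR adjusted p = 0.000313). In these 3 genes every MCT4-KO library lay below every control library, and without replicate 4 of Control_2pct the values were -0.25, -0.28 and -0.18, all still called. Atp5c1, the central stalk of the ATP synthase head, was at -0.14 ± 0.035 and Cox4i1 at -0.17 ± 0.055, and the call of Cox4i1 was lost without replicate 4 of Control_2pct (-0.10, edgeR adjusted p = 0.0619).

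The members higher in MCT4-KO cells at 2% oxygen were Cycs, Atp5g1, Atp5g2, Sdha and Cox5b. Cycs had 67.3, 73.2, 71.1 and 77.7 CPM in control libraries and 89.4, 81.7, 83.3 and 86.8 CPM in MCT4-KO libraries, without overlap, and rose by 0.24 ± 0.046 (edgeR adjusted p = 0.000397), or by 0.19 ± 0.045 with its copies added. Atp5g1 rose by 0.24 ± 0.048 from 84.9, 88.9, 91.2 and 95.5 CPM to 111, 103, 108 and 103 CPM, Sdha by 0.16 ± 0.032 and Cox5b by 0.14 ± 0.036. Without replicate 4 of Control_2pct these values were 0.27 for Cycs and Atp5g1, 0.16 for Sdha and 0.12 for Cox5b. Atp5g2 was at 0.23 ± 0.090 (edgeR adjusted p = 0.0467), but at 0.01 ± 0.064 with its copies added (edgeR adjusted p = 0.886), and the call was also lost when any 1 of 9 libraries was left out: replicate 1 or 3 of Control_20pct, 3 or 4 of MCT4-KO_20pct, 2, 3 or 4 of Control_2pct or 1 or 2 of MCT4-KO_2pct (0.16 to 0.25).

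**Figure D5:**
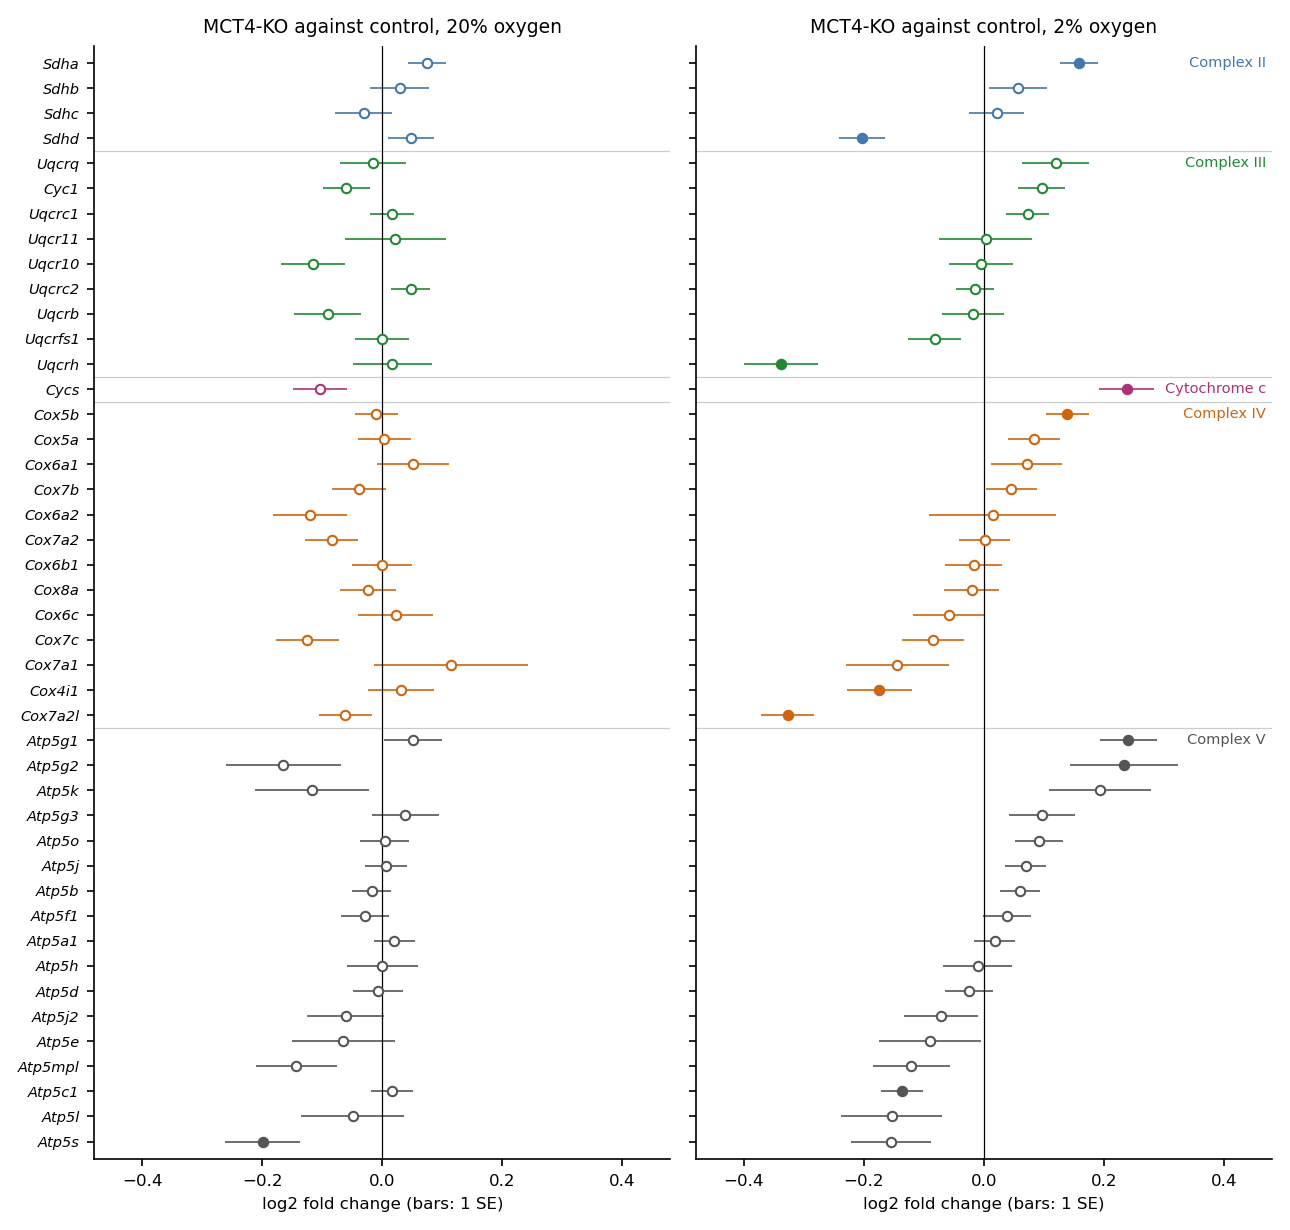
Log2 fold change of each of the 44 tested members in MCT4-KO against control cells (horizontal axes, bars 1 SE) at 20% oxygen (left) and 2% oxygen (right), grouped by complex and ordered by the value at 2%, with filled points for members with an edgeR adjusted p under 0.05. There is 1 filled point at 20% oxygen (Atp5s) and there are 10 at 2%, 5 on each side of 0.

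The knockout and oxygen comparisons share their libraries, so their values are set side by side only. Whether the knockout difference itself changed with oxygen was tested by the interaction term, the difference at 2% minus that at 20% oxygen. It was called for 8 of the 44 members, 4 higher and 4 lower, against 22.9% of all genes tested. The values were -0.35 ± 0.090 for Uqcrh, -0.27 ± 0.063 for Cox7a2l and -0.25 ± 0.054 for Sdhd (edgeR adjusted p = 0.00744, 0.00479 and 0.00246), and 0.34 ± 0.064 for Cycs (edgeR adjusted p = 0.000723). These 4 calls were kept when each library was left out in turn, with -0.27, -0.22, -0.23 and 0.38 without replicate 4 of Control_2pct. Atp5c1 was at -0.15, and its call was lost without replicate 3 or 4 of MCT4-KO_20pct, 1 of Control_2pct or 4 of MCT4-KO_2pct (-0.13 to -0.15), and also under library-size scaling, no filter or the replicate block (edgeR adjusted p = 0.0667, 0.0614 and 0.0550). Cyc1 was at 0.16, a call lost without any library other than the replicates numbered 4 (0.13 to 0.17) and under DESeq2 size factors, no filter or the replicate block (edgeR adjusted p = 0.0528, 0.0794 and 0.0799). Cox5b was at 0.15, lost without any library other than replicate 4 of Control_20pct and 3 of Control_2pct (0.13 to 0.15) and with no filter (edgeR adjusted p = 0.0899). Atp5g2 was at 0.40, but at 0.02 with its copies added, and was lost without replicate 1 or 2 of Control_20pct, 1 or 4 of MCT4-KO_20pct, 2 or 3 of Control_2pct or 2 of MCT4-KO_2pct (0.32 to 0.39). The number of members called fell to 5 without replicate 3 or 4 of MCT4-KO_20pct or 2 of MCT4-KO_2pct. Put in levels, the rise of Uqcrh at low oxygen was smaller in MCT4-KO cells, as were those of Cox7a2l and Sdhd, and the fall of Cycs was smaller.

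The counts of related genes at 2% oxygen stand against 38.4% of all genes tested, 19.4% higher and 19.1% lower. Of 23 assembly factors of complex IV 6 were higher and 4 lower in MCT4-KO cells. Among the higher ones were Coa7 (0.39 ± 0.064), Lrpprc (0.28 ± 0.055) and Cox10 (0.20 ± 0.044). The 4 lower ones were Cox14 (-0.28 ± 0.063), Cox20 (-0.28 ± 0.087), Surf1 (-0.20 ± 0.046) and Cox16 (-0.19 ± 0.071). Of the 6 mitochondrially encoded genes mt-Atp8 (0.51 ± 0.097) and mt-Co2 (0.42 ± 0.14) were higher and the other 4 did not pass. Of 11 regulators 2 were higher, Pprc1 (0.51 ± 0.065) and Tfam (0.15 ± 0.038), and 1 lower, Esrra (-0.16 ± 0.043). In complex I 5 of 36 were higher and 4 lower.

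Most members encode short proteins, and the change of the members at low oxygen varied with length. The 32 members with a coding length under 600 bases had a median log2 fold change of 0.64 in control and 0.67 in MCT4-KO cells, and the 12 longer ones 0.34 and 0.30. Among other protein-coding genes the medians were 0.19 and 0.13 for 1512 short genes and -0.04 and -0.03 for 10409 longer ones. Across the 44 members the Spearman correlation of coding length with the change was -0.44 in control and -0.43 in MCT4-KO cells. Pearson's r, taken with the log2 of coding length, was weaker, -0.16 and -0.18. Across 11965 protein-coding genes the Spearman correlation was -0.09 and -0.06. These are given as a description, since the points share the same libraries and genes are not independent replicates. Both length classes of the members had higher medians than other genes of their class, and the part of transcript length in the result was not tested.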

How the data were processed

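RNA from 16 libraries was poly(A)-selected and sequenced, per the labels' protocols. HISAT2, RSEM and mm10 are named in the submitters' processing notes; their versions, the annotation and the strand setting were not given in the sources used here. The authors deposited expected counts per gene (10.1% not whole), which were rounded here. Rows without a symbol held 0.0103% of the counts and stayed in the fit, but could not be chosen as members. Genes were filtered with filterByExpr, scaled by TMM and tested with edgeR 4.0.16 (R 4.3.3), quasi-likelihood, over all 16 libraries, with Benjamini-Hochberg adjustment over 13774 genes. A gene without a count in a library is limited to 0.124 CPM on average (3 counts, counting error only). Isoform shares were compared by exact permutation (scipy 1.17.1) and copies found with blastn 2.17.0. The test was checked on simulated data, where it missed part of the changes of every size, large ones included. The false share among its calls lay somewhat above the threshold. Alternatives were DESeq2 1.42.0 (size factors, Wald test), limma-voom 3.58.1, library-size scaling, other filters, a replicate block, only the groups compared, and leaving out each library. Genes named were isoform pairs, up to 3 called members per complex and comparison with the smallest adjusted p, members against their complex's direction, and up to 3 per related list; further members are named for completeness. Members, lists and rules were chosen with earlier results of these data known.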

Additional observations from a re-analysis of the deposited data

Results flagged for a closer look

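Among 224 groups of 4 libraries tested (members, sums and isoform shares), 16 had 1 library far from the other 3, where chance flags about 1 in 20 groups. Replicate 4 of Control_2pct was the high library for Uqcrh (175 CPM), Atp5a1 (1295 CPM), Atp5h (186 CPM) and the sums of complex III (1417 CPM) and complex V (5298 CPM). Replicate 1 of MCT4-KO_20pct was the low library for Uqcr10 (47.8 CPM), Cox7b (56.2 CPM) and Atp5mpl (39.7 CPM). In MCT4-KO_2pct, Cox8a (318 CPM) and Atp5c1 (233 CPM) were low in replicate 4, Atp5g3 was high in replicate 1 (212 CPM), and the share of Atp5g2 among the c subunit genes was high in replicate 2 (11.9%). In Control_20pct, Uqcrc1 (220.2 CPM) and Atp5d (183 CPM) were high in replicate 2 and Atp5c1 in replicate 1 (202 CPM), and in Control_2pct Cox7b was low in replicate 2 (121 CPM).

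The difference between MCT4-KO and control cells itself differed between the oxygen levels by edgeR's interaction test for 8 of the 44 tested members. That is 18.2% of them, against 22.9% of all genes tested. The log2 values, 2% minus 20% oxygen, were -0.35 for Uqcrh, -0.27 for Cox7a2l, -0.25 for Sdhd, -0.15 for Atp5c1, 0.34 for Cycs, 0.16 for Cyc1, 0.15 for Cox5b and 0.40 for Atp5g2. The calls of the first 3 and of Cycs were kept under every alternative run, 4 of the 8 in all, and Atp5g2 was at 0.02 with its copies added (edgeR adjusted p = 0.923).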

How the results depend on the processing

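Of the calls on members, 36 of 42 for oxygen in control cells, 34 of 43 for oxygen in MCT4-KO cells, 8 of 10 for the knockout at 2% oxygen, 0 of 1 at 20% and 4 of 8 for the interaction were kept under every alternative run. Leaving out each library in turn gave 42 to 43, 41 to 44, 9 to 18, 0 to 2 and 5 to 11 called members, in that order. At 20% oxygen 0 members were called with DESeq2 size factors, library-size scaling, no filter, the replicate block, only the groups compared, limma-voom or DESeq2's Wald test. At 2% oxygen library-size scaling gave 19. It also turned the oxygen values of Atp5b (-0.052), Atp5f1 (-0.056), Atp5g1 (-0.20) and Sdha (-0.0090) in control cells and of Cox7a2l (-0.051) in MCT4-KO cells. Same-numbered libraries did not deviate together (correlations -0.064 to 0.115), so the numbers were not taken as pairs; with the replicate block 42, 43, 10 and 6 members were called for oxygen in control, oxygen in MCT4-KO cells, the knockout at 2% and the interaction.

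The differences in isoform share that moved by more than the spread between replicates are given in percentage points, at 2% minus 20% oxygen unless stated. Without division by length they were 5.12 (control) and 4.07 (MCT4-KO) for Cox7a1, -9.38 and -8.12 for Atp5g1, 9.84 and 7.37 for Atp5g3, and -7.66 for Cox7a2l in MCT4-KO cells. With copies added, an alternative chosen after seeing the data, they were -1.79 and -1.19 for Atp5g1, -3.34 and -4.21 for Atp5g2 and 5.14 for Atp5g3 in control cells, and for MCT4-KO minus control at 2% oxygen -1.54 for Atp5g2 and 0.711 for Atp5g3. The cause was not tested. Low counts limit Cox4i2, Cox6b2, Cox7b2, Cox8b and Cox8c.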
